A study of Triticum aestivum with 18 samples.

Results

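The 2 genes described here were annotated to the copying of DNA, TraesCS1A02G129400 on chromosome 1A (the 1A gene) to DNA replication initiation and TraesCS1D02G365600 on chromosome 1D (the 1D gene) to DNA replication. They were 2 of the 107892 high-confidence wheat genes measured. Both were chosen from measured values. The 1A gene came from the replication initiation genes that the study listed as higher on Day 7 than on Day 0 in Nanda, and the 1D gene from the replication genes listed as lower in Nanda than in Sadash on Day 21, in each case with their level known. Comparisons that used those libraries are therefore given for each gene as values without a test.

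The libraries came from isolated microspore cultures of Nanda, a highly embryogenic spring wheat, and Sadash, a spring wheat with a limited response. Total RNA was taken from pooled material at 3 stages, which were Day 0 (microspores), Day 7 (proembryos) and Day 21 (embryo-like structures, ELS), with 3 biological replicates for each of 6 groups and 18 libraries in all. All donor spikes were cut at the mid- to late-uninucleate stage and kept cold before isolation, so Day 0 microspores of both genotypes had already been chilled. In pooled cultures, fewer cells of a type and less RNA per cell cannot be told apart. The high-confidence genes held between 6675332 and 27463367 counts per library, and both extremes were Sadash Day 21 libraries (replicates 2 and 1).

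Before a cell copies its genome, helicase complexes are loaded at replication origins, and their activation unwinds the double strand and admits the polymerases. This first phase is called initiation, and it belongs to cells that are preparing to divide. Other replication proteins copy, join and proofread the strands, and many of them also act in DNA repair. A microspore that enters embryogenesis leaves the path to pollen and starts a series of divisions inside the pollen wall, each of which needs a copied genome.

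Both genes were expressed in every library. Each had 1 annotated transcript, so a gene value equalled a transcript value, and the counts ran from 1120 to 13526 for the 1A gene and from 411 to 2334 for the 1D gene. By mean TPM, a unit that divides by transcript length and by library total, the 1A gene lay at 102 TPM and the 1D gene at 56.2 TPM, at percentiles 98.0 and 95.8 of the 62692 genes that reached 1 CPM, a count scaled to the library total, in 1 or more libraries. Besides replication initiation, the 1A gene was annotated to DNA duplex unwinding and DNA geometric change. The 1D gene was also annotated to DNA repair, the DNA damage response, the cellular response to stress and the catabolism of nucleobase-containing compounds.

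The level of the 1A gene was higher in ELS than in microspores of both genotypes, but the larger step came at different times. In Nanda, it lay between Day 0 and Day 7, whereas in Sadash the Day 7 level overlapped that of Day 0 and the larger step lay between Day 7 and Day 21. Levels are given as CPM after TMM normalization, in the order of replicates 1, 2 and 3. Libraries of Nanda held the 1A gene at 105, 86.4 and 91.0 CPM on Day 0, at 215, 213 and 180.3 CPM on Day 7, and at 295, 242 and 243 CPM on Day 21. Every Nanda library thus lay above every library of the stage before. Those of Sadash held it at 136, 173 and 148 CPM on Day 0, at 176, 219 and 134 CPM on Day 7, and at 511, 332 and 367 CPM on Day 21. The Day 7 values of Sadash spread over and beyond its Day 0 values, and all 3 Day 21 values lay above both.

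**Figure D1:**
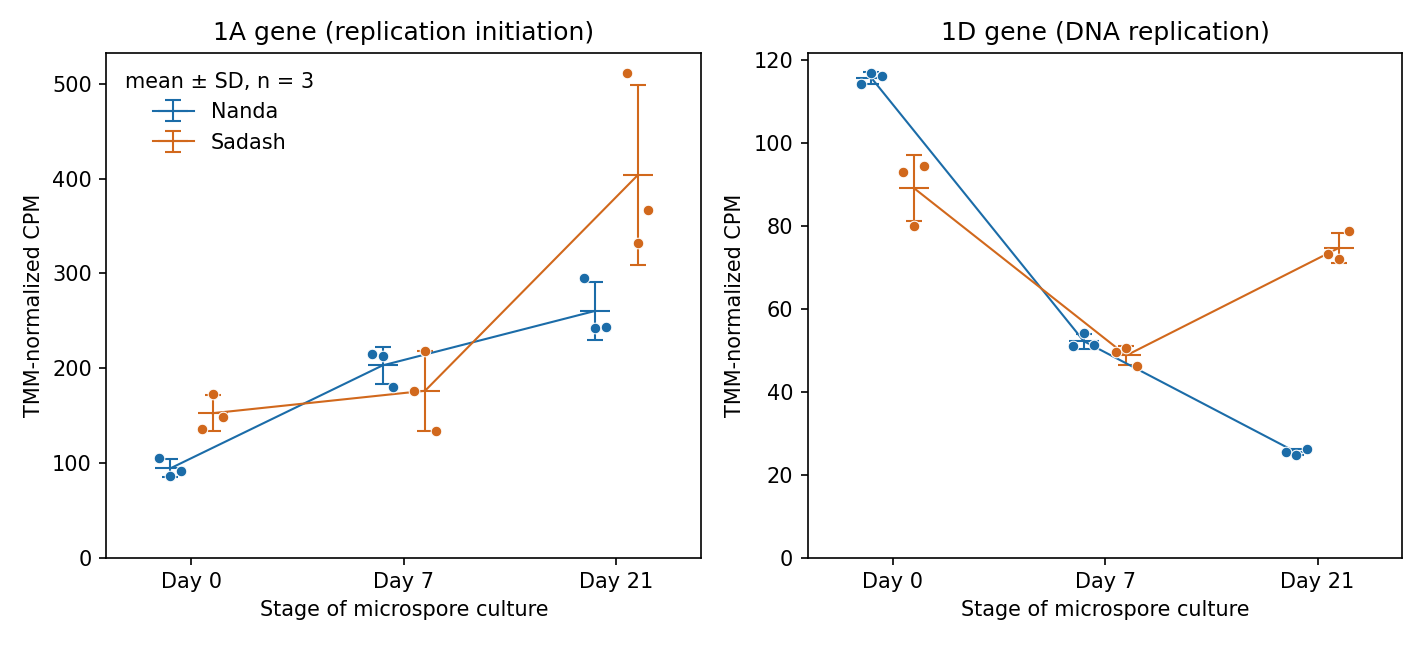
Levels of the 1A gene (left) and the 1D gene (right) in TMM-normalized CPM by stage of culture in Nanda and Sadash. Points are libraries, horizontal ticks the means and bars the SD of 3 replicates. All Day 21 libraries lay above the Day 0 libraries of their genotype for the 1A gene, and for the 1D gene Sadash went from 48.8 CPM on Day 7 to 74.7 CPM on Day 21 and Nanda from 52.2 to 25.4 CPM.

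On average, the 1A gene of Nanda held 94.0 ± 9.49 CPM (SD, n = 3) in microspores, 203 ± 19.5 CPM in proembryos and 260.3 ± 30.3 CPM in ELS. The first step was 2.16-fold and the second 1.28-fold. In Sadash, it went from 152 ± 18.9 to 176 ± 42.4 and 403 ± 95.0 CPM, with a first step of 1.16-fold and a second of 2.29-fold. Over the whole culture, the change came to 2.77-fold in Nanda and 2.65-fold in Sadash.

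Tests of the 1A gene are printed only where the Day 0 and Day 7 libraries of Nanda had no part. The gene and the comparisons were chosen with earlier results of these data known, so these tests are not independent of those results. In Sadash, this gene had a log2 fold change of 0.21 ± 0.17 (SE, 95% interval -0.15 to 0.57) from Day 0 to Day 7. It had an adjusted p of 0.333 from edgeR's quasi-likelihood test. From Day 7 to Day 21, it rose by 1.20 ± 0.17 (edgeR adjusted p = 1.39e-05), and over both steps by 1.41 ± 0.18 (edgeR adjusted p = 1.35e-06). A gene was called when its log2 fold change reached 1 in size with an adjusted p below 0.01, and both rises passed. Of all 62692 genes tested, 16.8% were called higher on Day 21 than on Day 7 of Sadash and 24% higher on Day 21 than on Day 0. Without the library of Sadash Day 21 replicate 1, which held the highest level, the second step was 0.99 (edgeR adjusted p = 0.000105), just under the fold threshold.

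On Day 21, the 1A gene was lower in Nanda than in Sadash in all libraries, by a log2 difference of -0.63 ± 0.17 (edgeR adjusted p = 0.00886), which missed the fold threshold. With TPM plus 1 in place of CPM, the difference was -0.35 and limma's adjusted p was 0.134. As a description without a test, the gene was also lower in Nanda on Day 0, by -0.70 ± 0.17, and stood at 0.20 ± 0.17 on Day 7, where the libraries of the genotypes overlapped. The first step of Nanda exceeded that of Sadash by 0.90 ± 0.25 on the log2 scale, the second step differed by -0.84 ± 0.24, and the net change by 0.06 ± 0.24.

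The size of the second step in Nanda depended on the scale. In TPM, the 1A gene of Nanda went from 43.8 ± 5.42 (SD, n = 3) to 85.5 ± 5.67 and 141 ± 14.6 over the stages. Its second step was then 0.71 on the log2(TPM + 1) scale, against 0.36 ± 0.17 by CPM, and the genotype difference of the second step shrank to -0.36. The median of all genes whose mean reached 1 CPM was -0.10 for that step of Nanda by CPM and 0.20 by TPM plus 1, and relative to it the 1A gene stood at 0.46 and 0.51. In Sadash, the TPM levels were 71.7 ± 10.7, 87.1 ± 24.1 and 182 ± 37.0. The direction of every step, and the overlap of Day 0 with Day 7 in Sadash, were alike on both scales.

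The 1D gene was lower on Day 7 than on Day 0 in both genotypes, and from there the genotypes parted. In Nanda its level was lower again on Day 21, and in Sadash it was higher. In Nanda, the 3 libraries held 114, 117 and 116 CPM on Day 0, 51.0, 54.3 and 51.3 CPM on Day 7, and 25.4, 24.7 and 26.1 CPM on Day 21. The replicates of a Nanda group lay close together, and no stage overlapped another. In Sadash, they held 92.9, 80.0 and 94.5 CPM on Day 0, 49.6, 50.5 and 46.1 CPM on Day 7, and 73.2, 72.1 and 78.8 CPM on Day 21. The Day 21 libraries of Sadash all lay above its Day 7 libraries and below its Day 0 libraries.

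From Day 0 to Day 7, the 1D gene of Nanda fell by 1.15 ± 0.096 on the log2 scale (edgeR adjusted p = 1.77e-08), from 116 ± 1.38 to 52.2 ± 1.79 CPM (SD, n = 3), a 2.22-fold drop that passed both thresholds. Of all genes tested, 15.2% were called lower in that comparison. In Sadash, the change was -0.87 ± 0.096 (edgeR adjusted p = 7.90e-07), from 89.2 ± 7.94 to 48.8 ± 2.32 CPM, 1.83-fold lower without overlap of libraries but under the fold threshold. The changes of Nanda and Sadash differed by -0.28 ± 0.13 (95% interval -0.56 to 0.0035), with an adjusted p of 0.165 from edgeR. DESeq2 put this difference at -0.40 with an adjusted p of 0.00313, still under the fold threshold. On Day 0 the gene was higher in Nanda by 0.38 ± 0.094 (edgeR adjusted p = 0.00596), in all libraries but under the fold threshold. On Day 7, the difference was 0.10 ± 0.096 (95% interval -0.10 to 0.30, edgeR adjusted p = 0.449), and with TPM plus 1 it took the opposite sign, -0.12.

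The steps that include Day 21 helped to choose the 1D gene and are given without a test. From Day 7 to Day 21, the gene of Nanda changed by -1.04 ± 0.097 on the log2 scale and that of Sadash by 0.62 ± 0.095. Over the whole culture, the change was -2.19 ± 0.099 in Nanda, to 25.4 ± 0.719 CPM, and -0.25 ± 0.095 in Sadash, to 74.7 ± 3.62 CPM. Nanda ELS thus held the lowest level of the 6 groups and stood 1.56 ± 0.098 below Sadash ELS on the log2 scale, a 2.94-fold difference. On the log2(TPM + 1) scale, the second step was -0.65 in Nanda and 0.49 in Sadash, with the same directions. Relative to the medians of all genes given above, that of Nanda was -0.94 by CPM and -0.85 by TPM plus 1.

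Ordered by CPM, the 1A gene was highest in Sadash Day 21, then in Nanda Day 21, Nanda Day 7 and Sadash Day 7. Sadash Day 0 and Nanda Day 0 followed. The ranges of Nanda Day 7 and Sadash Day 7 overlapped, as did those of Sadash Day 7 and Sadash Day 0, and the other neighbours were apart. The 1D gene was highest in Nanda Day 0, followed by Sadash Day 0, Sadash Day 21, Nanda Day 7, Sadash Day 7 and Nanda Day 21. None of its neighbours overlapped, although the difference between Nanda Day 7 and Sadash Day 7 did not pass the test above.

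Set side by side per length, the genes changed places during culture. In Nanda, the log2 ratio of the TPM of the 1A gene to that of the 1D gene was -1.13 ± 0.16 (SD, n = 3) in microspores, 1.12 ± 0.13 in proembryos and 2.51 ± 0.17 in ELS. The 1A gene therefore stood at 0.457 times the 1D gene in microspores and at 5.71 times in ELS. In Sadash, the log2 ratio was -0.07 ± 0.30, 0.99 ± 0.29 and 1.57 ± 0.34. Microspores of Sadash thus held both genes at about the same TPM, with libraries from -0.29 to 0.28, and the mean ratio was higher at each later stage in both genotypes. The Day 7 ranges of the genotypes overlapped, at 0.98 to 1.25 in Nanda and 0.71 to 1.28 in Sadash.

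**Figure D2:**
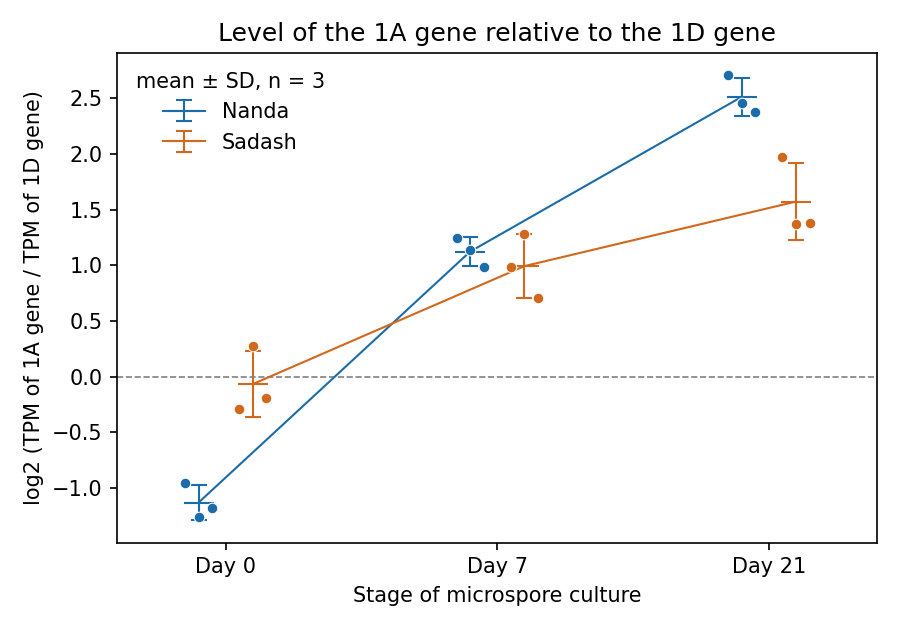
Log2 ratio of the TPM of the 1A gene to the TPM of the 1D gene by stage in Nanda and Sadash. Points are libraries, ticks the means and bars the SD of 3 replicates, and the dashed line marks equal TPM. Nanda moved from -1.13 to 2.51 and Sadash from -0.07 to 1.57.

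Bread wheat is hexaploid and usually carries a copy of each gene on its A, B and D subgenomes, together called a triad. The triad of the 1A gene also holds TraesCS1B02G146200 and TraesCS1D02G125300, and that of the 1D gene holds TraesCS1A02G361200 and TraesCS1B02G377800. RSEM divides reads that fit more than 1 copy among the copies, so the values of single copies are uncertain and the sum over a triad is less so. Summed over its triad, the 1A gene group of Nanda went from 101 ± 15.0 TPM (SD, n = 3) to 215 ± 16.1 and 335 ± 31.5 TPM over the stages. In Sadash, the sums were 145 ± 23.7, 179 ± 49.1 and 367 ± 70.3 TPM. The triad of the 1D gene went from 281 ± 6.04 to 111 ± 5.83 and 74.5 ± 3.35 TPM in Nanda, and from 196 ± 10.6 to 111 ± 12.7 and 145 ± 11.6 TPM in Sadash. By mean TPM, the 6 groups stood in the same order in each sum as in the CPM of the member. In the TPM of the members themselves, Sadash Day 7 lay above Nanda Day 7. The means were 87.1 against 85.5 TPM for the 1A gene and 42.75 against 39.2 TPM for the 1D gene.

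In the initiation triad, the B copy, TraesCS1B02G146200, was far lower in Sadash than in Nanda. In Nanda it held 66.6, 44.7 and 47.8 CPM on Day 0, 150.2, 138 and 126 CPM on Day 7, and 201, 187 and 179 CPM on Day 21. In Sadash it held 21.8, 29.2 and 23.8 CPM on Day 0, 18.5, 24.7 and 17.6 CPM on Day 7, and 68.5, 51.3 and 66.9 CPM on Day 21. At every stage, all Nanda libraries lay above all Sadash libraries. On Day 21 the difference was 1.60 ± 0.17 on the log2 scale (edgeR adjusted p = 8.36e-07), 3.03-fold higher in Nanda, where 6.96% of all genes were called higher. Within Sadash, this B copy changed by -0.30 ± 0.17 from Day 0 to Day 7 (edgeR adjusted p = 0.155). It rose by 1.62 ± 0.17 from Day 7 to Day 21 (edgeR adjusted p = 3.32e-07), the same order of steps as in the 1A gene. How far these steps rest on reads that fit more than 1 copy was not tested. The study reports that triads with a low share of the B copy kept that pattern more often in Sadash than in Nanda. It also describes a long region on the chromosome of this B copy, rich at every stage in genes higher in Nanda. For such regions, the study proposes structural differences between the genotypes. Whether this B copy lies in that region was not tested, since coordinates were not used.

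As a share of the summed TPM of its triad, TraesCS1B02G146200 took 20.2% to 28.3% in the 9 Nanda libraries and 4.60% to 7.98% in the 9 Sadash libraries. The share of the 1A gene was 38.6% to 44.6% in Nanda and 48.2% to 50.1% in Sadash. Averaged over stages, the share of the B copy was 18.0 percentage points higher in Nanda and that of the 1A gene 7.52 points lower. The ranges did not overlap, and no test is given, since these libraries include those that chose the gene. The D copy, TraesCS1D02G125300, held 33.8% in Nanda and 44.3% in Sadash. In CPM it followed the 1A gene, with 77.7, 192 and 197 CPM on average at the 3 stages in Nanda and 137, 173 and 368 CPM in Sadash. Its rise from Day 7 to Day 21 in Sadash was 1.09 ± 0.18 (edgeR adjusted p = 6.30e-05).

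**Figure D3:**
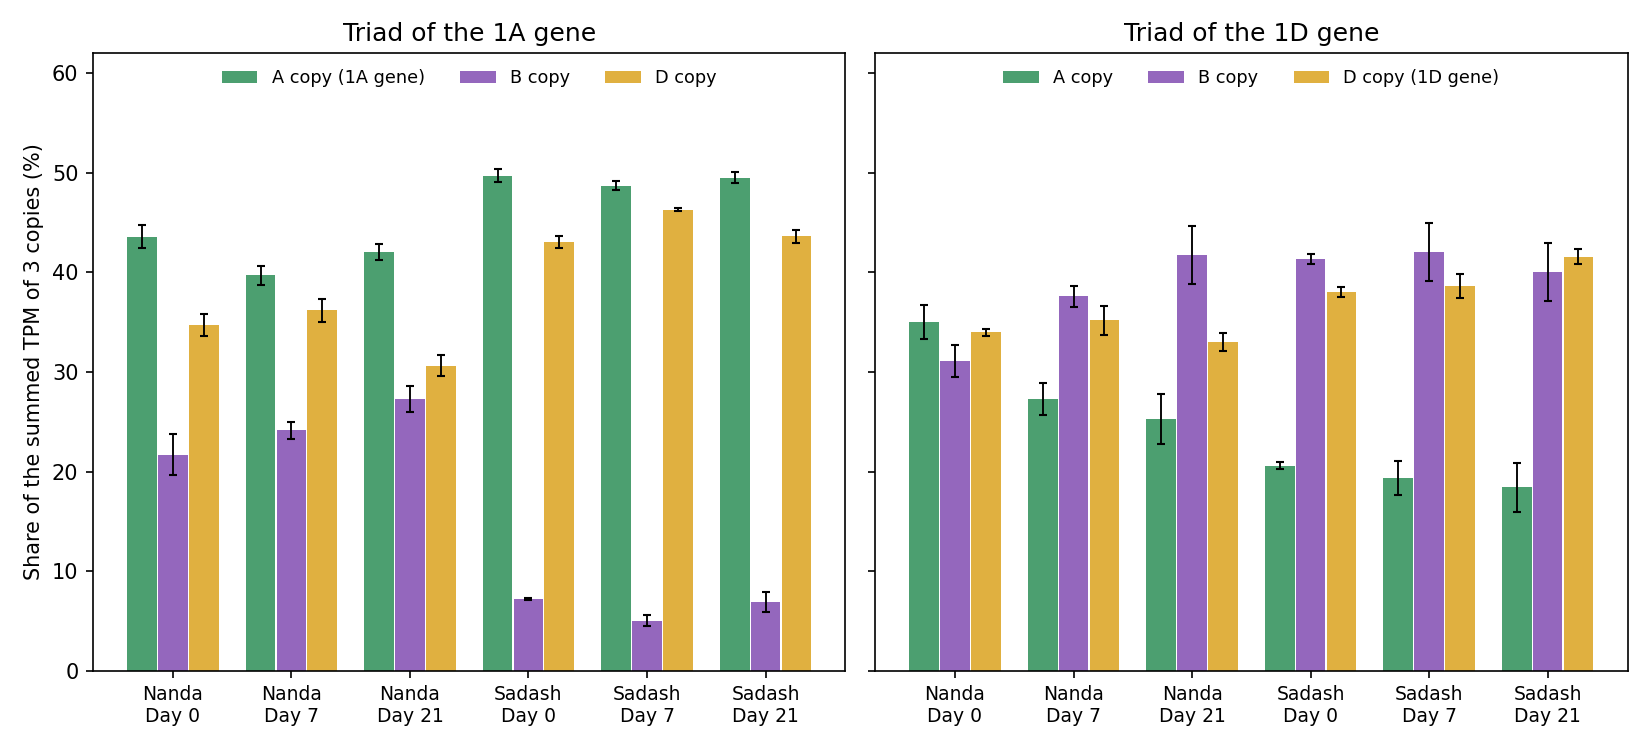
Share of the summed TPM of 3 copies held by the A, B and D copy in each group, for the triad of the 1A gene (left) and of the 1D gene (right). Bars are means and error bars the SD of 3 replicates. In the left triad, the B copy lay between 21.7% and 27.3% in the Nanda groups and between 5.05% and 7.24% in the Sadash groups.

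In the triad of the 1D gene, the shares differed less between genotypes. The 1D gene held 32.0% to 36.9% in Nanda and 37.2% to 42.3% in Sadash and averaged 5.35 percentage points lower in Nanda, again without a test. The B copy, TraesCS1B02G377800, averaged 4.34 points lower in Nanda, with overlapping libraries. The A copy, TraesCS1A02G361200, took 35.0%, 27.3% and 25.2% of the triad over the stages of Nanda, and between 18.4% and 20.6% on average in the Sadash groups. On Day 0, the A copy was 2.47-fold higher in Nanda (SE 0.13 on the log2 scale, edgeR adjusted p = 5.96e-07), in a comparison in which 5.44% of all genes were called higher. It then went from 119 to 40.5 and 19.4 CPM on average in Nanda. The first of these changes, -1.55 ± 0.13, was called (edgeR adjusted p = 1.92e-08).

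All 3 copies of the 1D triad shared the turn after Day 7, which is given without a test. TraesCS1A02G361200 changed by -1.06 ± 0.13 in Nanda and 0.45 ± 0.13 in Sadash between Day 7 and Day 21, and TraesCS1B02G377800 by -0.80 ± 0.12 and 0.43 ± 0.12. For each copy, by CPM, all Nanda libraries of Day 21 lay below those of Day 7 and all Sadash libraries lay above. In TPM, the Sadash libraries of Day 7 and Day 21 overlapped for TraesCS1B02G377800.

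The 1A gene had the highest mean CPM of the 20 genes in the study's list of DNA replication initiation genes. The list was built by the study from genes that rose in Nanda between Day 0 and Day 7, so its 19 calls there, against 18.5% of all genes called higher, describe that choice. From Day 0 to Day 7 in Sadash, 1 of the 20 was called higher, against 16% of all genes. That gene was TraesCS5A02G142600, with 1.18 ± 0.22. The count lay between 0 and 2 over the alternatives, and 9 were higher at an unadjusted p under 0.05. Shares of all genes at that unadjusted p were not taken, here or below, and the shares given are of called genes. From Day 7 to Day 21, none was called in Nanda by edgeR or DESeq2, where 15.8% of all genes were called higher by edgeR and 18.3% lower. At an unadjusted p under 0.05, 9 were higher and 1 was lower, and 2 were called higher on the log2(TPM + 1) scale. In Sadash, 19 were called higher in that step, where 16.8% of all genes were. The gene that was not, TraesCS2D02G163800, had -0.18. The medians of the list over these steps, in the same order, were 0.47, 0.33 and 1.55, beside medians over all genes of 0, -0.05 and 0.

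The order of steps seen in the 1A gene was thus shared by most of its list. Of the 20 genes, 17 were called higher in Nanda from Day 0 to Day 7 and in Sadash from Day 7 to Day 21 and were not called higher in the other step of either genotype. Over all genes tested, 1.52% met these conditions. The first of them had built the list, and the second step of Nanda uses the same Day 7 libraries. Of the listed genes, 16 were copies within 6 triads, and copies of a triad can share reads. The count is therefore a description, and nothing is read from its distance to the share of all genes. On the log2(TPM + 1) scale the median second step of Nanda was 0.70 in place of 0.33, with the same sign.

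**Figure D4:**
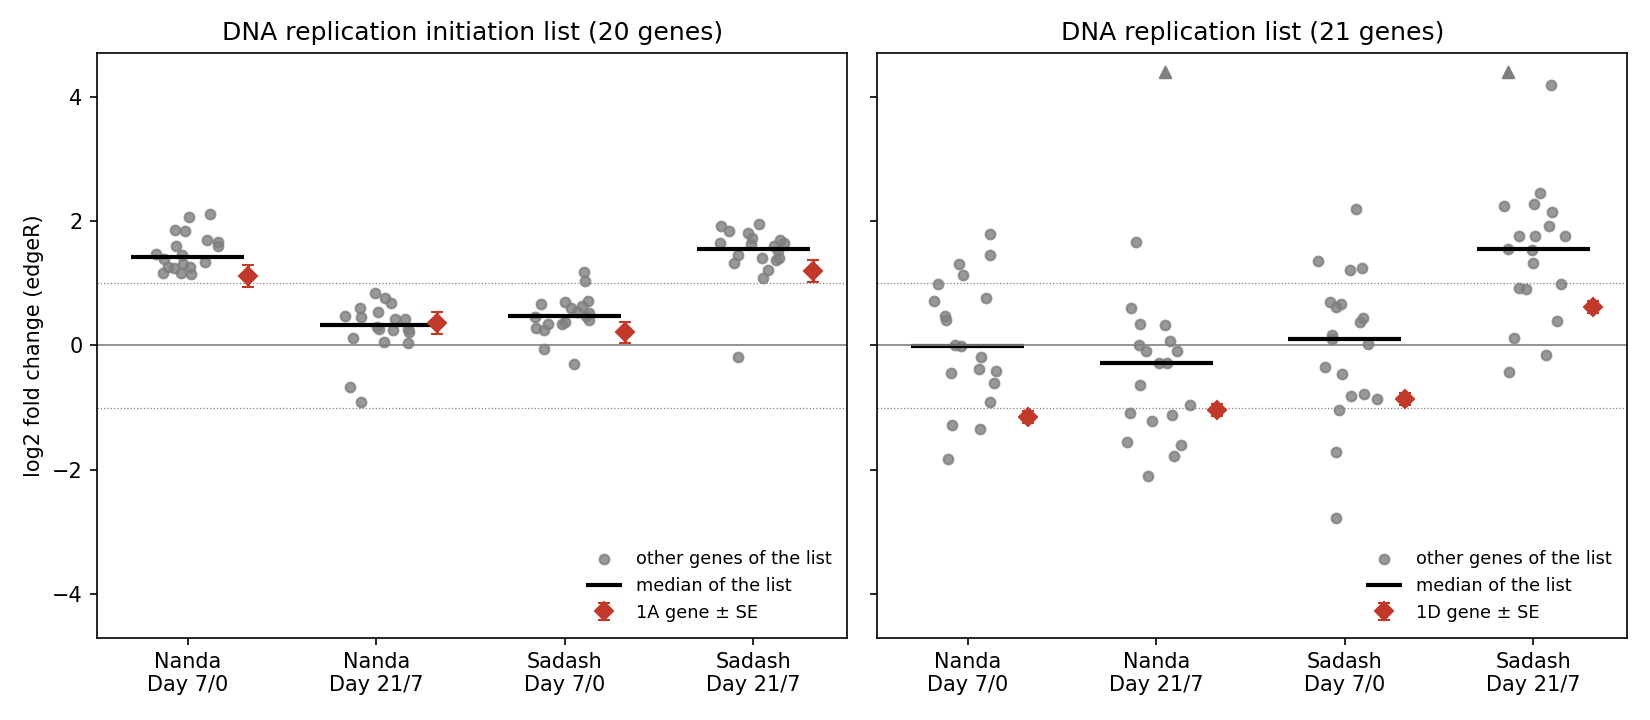
Log2 fold changes in CPM over each step of culture for the 20 DNA replication initiation genes (left) and the 21 DNA replication genes (right). Grey points are genes, black bars list medians, red diamonds the 1A gene and the 1D gene with their SE, dotted lines the fold threshold, and triangles 2 values above the axis. The initiation list had medians of 1.42 and 0.33 over the steps of Nanda and 0.47 and 1.55 over those of Sadash.

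Among the other initiation genes, the 3 with the highest mean CPM were the copies of a single triad, TraesCS1B02G274600, TraesCS1A02G264000 and TraesCS1D02G264100, also annotated to DNA duplex unwinding. TraesCS1B02G274600 went from 64.4 ± 8.99 CPM (SD, n = 3) to 204 ± 24.9 and 367 ± 39.7 CPM in Nanda and from 102 ± 16.7 to 145 ± 33.0 and 398 ± 104 CPM in Sadash. Its step in Sadash from Day 7 to Day 21 was 1.45 ± 0.19, against 1.51 ± 0.18 for TraesCS1A02G264000 and 1.21 ± 0.19 for TraesCS1D02G264100. The second steps of Nanda were 0.85 ± 0.19, 0.60 ± 0.18 and 0.67 ± 0.18 in the same order and were not called.

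Genes of the initiation list belonged to 6 complete triads, which were summed in TPM to set aside the division of reads among copies. From Day 0 to Day 7, the mean sums changed by 1.85-fold to 3.46-fold in Nanda (median 2.23) and 1.08-fold to 1.68-fold in Sadash (median 1.41). From Day 7 to Day 21, they changed by 1.38-fold to 2.04-fold in Nanda (median 1.64) and 2.05-fold to 3.35-fold in Sadash (median 2.54), upward in each case. Libraries of Day 7 lay above those of Day 0 without overlap in 6 of 6 triads of Nanda and 3 of 6 triads of Sadash. Between Day 7 and Day 21, all 6 triads were without overlap in both genotypes. The list was built on the first step of Nanda, so the count for that step describes the choice. The same counts over all triads were not taken, and nothing is read from them. In log2 units, the median over all genes in the second step of Nanda was 0.20 by TPM plus 1 and -0.10 by CPM. The triad of the 1A gene had the smallest second step of Sadash among the 6, at 2.05-fold. The mean share of its B copy differed by 18.0 percentage points between genotypes, and no copy of the other 5 triads differed by more than 3.51 points. Whether that gap is particular to this triad or shared by neighbouring genes on the chromosome of the B copy was not tested.

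**Figure D5:**
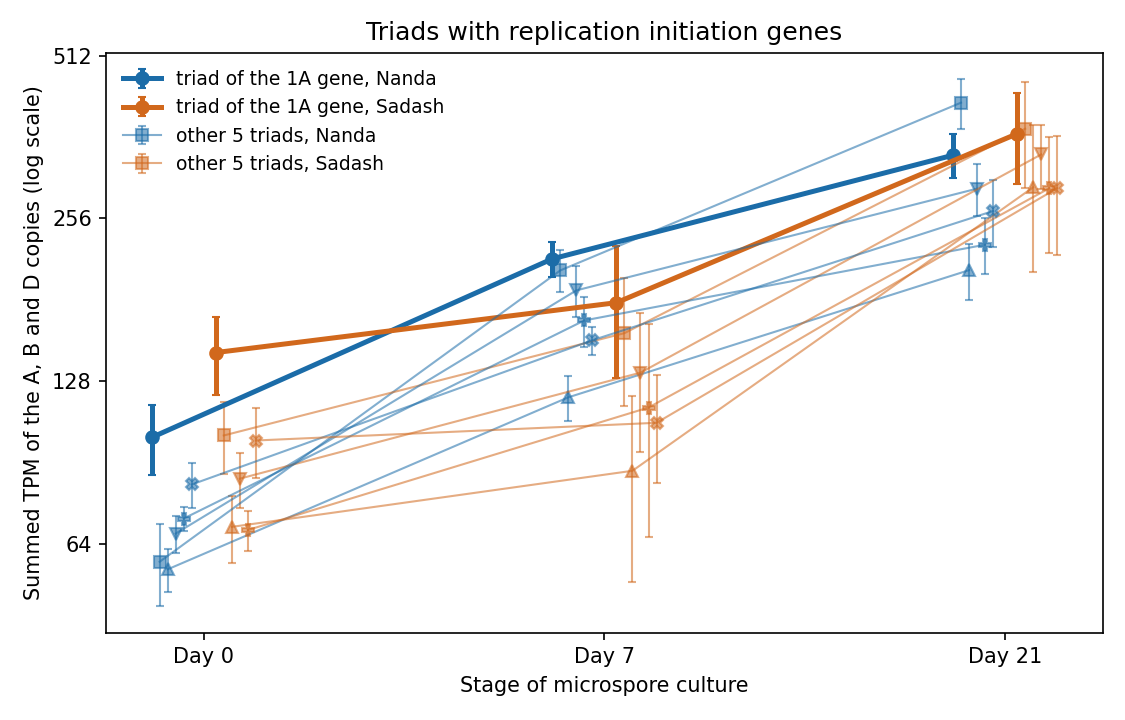
Summed TPM of the A, B and D copies, on a log scale, of 6 triads with replication initiation genes by stage in Nanda and Sadash. Symbols are means and bars the SD of 3 replicates, and heavy lines show the triad of the 1A gene. On Day 7, the mean of every triad was higher in Nanda, by 1.21-fold to 1.45-fold, and the Sadash libraries were widely spread.

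On Day 7, the summed triads were 1.21-fold to 1.45-fold higher in Nanda than in Sadash on average, and on Day 0 and Day 21 they were lower in Nanda in 5 of the 6. Of the 20 listed genes, 1 was called higher in Nanda on Day 7, against 6.78% of all genes, and this was the B copy TraesCS1B02G146200 described above. The count was 8 without the library of Sadash Day 7 replicate 2, which had the highest level of the 1A gene in its group. The difference between genotypes in the first step was called for 7 of the 20 genes, all with a larger rise in Nanda, against 3.96% of all genes. That count was 14 without Sadash Day 7 replicate 2, 4 without Sadash Day 7 replicate 3, Sadash Day 0 replicate 3 or Nanda Day 0 replicate 2, and 2 without Nanda Day 0 replicate 3. The difference in the second step was called for 14 genes, all with a larger rise in Sadash, against 9.4% of all genes. It was 6 without Sadash Day 21 replicate 1, 7 without Nanda Day 7 replicate 1 or Nanda Day 21 replicate 3, 8 without Nanda Day 21 replicate 2 or Sadash Day 7 replicate 3, 9 without Nanda Day 7 replicate 2, and 0 on the TPM scales. Those 3 comparisons share libraries with the one that built the list. Calls over all genes, in either direction, moved too. Without Sadash Day 7 replicate 2, they went from 8029 to 9109 on Day 7 and from 4644 to 6389 for the first step. Without Nanda Day 0 replicate 3, those for the first step were 2938. For the second step, they went from 10159 to 8631 without Sadash Day 21 replicate 1 and to 13076 on the log2(TPM + 1) scale.

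The list of DNA replication genes with the 1D gene is held here only in part, as 21 genes, and all counts below cover those. It was drawn by the study from genes lower in Nanda on Day 21, so the 20 calls there, against 5.6% of all genes called lower, describe that choice. By mean CPM the 1D gene was the third of the 21. From Day 0 to Day 7 in Nanda, 3 genes were called lower and 3 higher, against 15.2% and 18.5% of all genes, with a median of -0.02. The other genes called lower were TraesCS1A02G347900, with -1.35 ± 0.29, and TraesCS5B02G402000, with -1.28 ± 0.28. Those called higher were TraesCS2B02G382000, TraesCS1B02G353400 and TraesCS3B02G203200. These genes were picked out after their values were seen, apart from those with the highest levels below.

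From Day 7 to Day 21, 13 of the 21 genes were called higher in Sadash and none lower, against 16.8% and 18.4% of all genes, with a median of 1.54. At an unadjusted p under 0.05, for which no share of all genes was taken, edgeR put 17 higher and 0 lower. DESeq2 called 13 and 0. Both this step and that of Nanda rest on the Day 21 libraries that built the list, so these counts are a description and nothing is read from their distance to the shares of all genes. In Nanda, 8 were called lower and 2 higher, against 18.3% and 15.8%, with a median of -0.29. The 2 higher genes were TraesCS2B02G360100 and TraesCS3A02G361000. The 8 were 4 for the most abundant transcript of each gene and 3 on the log2(TPM + 1) scale, where the median was 0.00. An estimate below 0 in Nanda together with one above 0 in Sadash was found for 13 of the 21 genes, against 16.2% of all genes, and was called in both genotypes for 3, against 0.502%, which the choice of the list on Day 21 favours. These were TraesCS1A02G347900, TraesCS1D02G350800 and TraesCS1B02G362500, picked out after their values were seen. The 1D gene was not among them because its change in Sadash, 0.62, was under the fold threshold.

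TraesCS2D02G361800 and TraesCS2B02G382000, also annotated to DNA synthesis in DNA repair, were the highest of this list by mean CPM. TraesCS2D02G361800 held 42.1 ± 2.38, 83.7 ± 23.0 and 78.5 ± 15.4 CPM (SD, n = 3) in Nanda and 34.5 ± 5.84, 53.0 ± 26.8 and 233 ± 39.3 CPM in Sadash over the stages. TraesCS2B02G382000 held 24.3 ± 0.290, 83.7 ± 27.1 and 79.0 ± 11.7 CPM in Nanda and 26.7 ± 4.06, 42.1 ± 16.0 and 203 ± 31.1 CPM in Sadash. Neither of these 2 genes fell with the 1D gene between Day 0 and Day 7, although they too ended higher in Sadash. TraesCS3B02G203200 had 9.42 ± 1.46, 23.2 ± 6.12 and 11.9 ± 3.09 CPM in Nanda and 6.29 ± 1.91, 10.3 ± 4.95 and 34.4 ± 5.47 CPM in Sadash. Its mean, like that of the 1D gene, was lower on Day 21 than on Day 7 in Nanda and higher in Sadash.

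A further list, DNA-templated DNA replication, had 19 genes. From Day 7 to Day 21 of Sadash, 13 of the 19 were called higher, beside 16.8% of all genes, with a median of 1.75. In Nanda, the median of that step was -0.09 by CPM and 0.29 on the log2(TPM + 1) scale, so that its direction was not settled. This list, too, was drawn from genes lower in Nanda on Day 21, so both steps use the libraries that built it.

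The genes most like each member were sought over the 18 libraries by Pearson's r of log2(CPM + 1), among genes whose mean reached 10 CPM and outside the triad of the member, and are described without a test, since libraries of a group share their stage and genotype. For the 1A gene they were TraesCS6A02G360600 (r = 0.978, Spearman's rho = 0.979), TraesCS3B02G412600 (r = 0.972, rho = 0.977) and TraesCS1A02G299500 (r = 0.969, rho = 0.981). The first and last of these were on the initiation list. The other initiation genes of that level, 14 in number with the triad left out, had a median r of 0.944 with the 1A gene, beside -0.02 over 22693 genes. That list was built on a rise in Nanda from Day 0 to Day 7, which the 1A gene shares, so the choice favours a high r. For the marker lists described below, taken from the same comparison, the median r was 0.781 for 12 embryo genes. It was 0.349 for 2 pollen and anther genes and -0.847 for 7 GAMYB-type genes. Within its triad, the 1A gene had r = 0.982 with the D copy and 0.395 with the B copy.

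For the 1D gene, the most similar genes were TraesCS7B02G205000 (r = 0.966, rho = 0.959), TraesCS6B02G111400 (r = 0.964, rho = 0.953) and TraesCS1A02G160400 (r = 0.964, rho = 0.932). None of them was on a replication list used here. TraesCS7B02G205000 had 186, 101 and 50.0 CPM on average in Nanda and 146, 87.9 and 101 CPM in Sadash. Within its triad, the 1D gene had r = 0.982 with the B copy and 0.858 with the A copy. The 6 other genes of the DNA replication list at that level had a median r of 0.01 with it and ranged from -0.37 to 0.78. The members themselves had r = -0.47 with each other.

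Lists of marker genes were read beside these levels. All of them were taken from genes that the study called between Day 7 and Day 0 of Nanda. The difference between those days in Nanda therefore describes the choice. Differences between genotypes on Day 0 or Day 7 use the same Nanda libraries, so the choice favours them too. A list of 16 embryo genes (seed storage proteins, oleosins and late embryogenesis abundant proteins) summed to at most 1.86 CPM in any Day 0 library, 27.8 to 78.7 CPM in Sadash Day 7 and 95.1 to 381 CPM in Nanda Day 7. On Day 21 the sums were 3014 to 3641 CPM in Nanda and 1792 to 3707 CPM in Sadash. The highest of the Sadash Day 21 sums was that of replicate 1, which also had the highest level of the 1A gene. On Day 7, the highest level of the 1A gene in Sadash, in replicate 2, went with the lowest sum of embryo genes. The 7 GAMYB-type genes, of a family that acts in pollen development, summed to between 294 and 327 CPM on Day 0 and between 17.9 and 24.3 CPM on Day 21 over both genotypes. Pollen and anther genes, 4 in number, summed to at most 0.976 CPM on Day 0 and to 72.9 to 217 CPM on Days 7 and 21. Despite their label, they were thus near 0 in microspores, and they did not move together. From Day 7 to Day 21, 3 were called higher and 1 lower in each genotype. Over all genes, 15.8% were called higher and 18.3% lower in Nanda, and 16.8% and 18.4% in Sadash. The part of these differences in the levels of the members was not tested.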

How the data were processed

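The members, the lists and the comparisons were chosen with earlier results of these data known, and no list or test is independent of them. Paired-end reads were trimmed with Trimmomatic 0.39, mapped by STAR 2.7.5a (genome IWGSC v1.1) and quantified with RSEM 1.3.3. The tables deposited by the authors give expected counts and TPM of 298774 transcripts. Reads shared by copies are divided among them by RSEM. Transcripts were summed to genes, expected counts were rounded, and the 161536 low-confidence genes, which held 5.14% to 6.88% of counts, were left out. Counts were normalized by TMM and fitted with edgeR 4.0.16 (quasi-likelihood test, 1 level per group, 18 libraries together) over the 62692 genes that reached 1 CPM in any library. P-values were adjusted by Benjamini-Hochberg over all of these genes in each of 12 comparisons, standard errors were derived from the F statistic, and the procedure was tested on simulated data. Depth ran from 6675332 to 27463367 counts, and both members had at least 411 counts in each library.

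Triads and gene lists are those of the study's supplementary files, with gene ontology (GO) terms as annotations. The copy of the DNA replication list held here ends after 21 genes, so its counts cover a part of it. Named genes were the members, their triad copies, the 3 other genes with the highest mean CPM of the DNA replication initiation and DNA replication lists, the 3 genes most like each member, and those said to be picked out after their values were seen. Replicate numbers were checked for pairing by the correlation of deviations from group means, which exceeded 0.1 for all 3 numbers only between the Day 21 groups. A permutation test of shares is not reported, because its libraries include those that chose the genes. Alternatives covered the tool and scaling (RLE size factors, DESeq2 1.42.0, and limma 3.58.1 with its trend option on TPM plus 1 and TPM plus 0.1 in log2 units), the genes (unfiltered, 1 CPM in at least 3 libraries, low-confidence genes kept, the most abundant transcript) and the libraries (fits to those compared alone, the replicate number as a block, each library left out), and shares were also taken in CPM. R 4.3.3, Python 3.11.15, numpy 2.4.6, pandas 2.3.3, scipy 1.17.1 and matplotlib 3.10.9 were used. Coordinates and sequences were not used here, since the reference table at hand matched no identifier of these genes.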

Additional observations from a re-analysis of the deposited data

Results flagged for a closer look

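Between Day 7 and Day 21, 9 of the genes named above moved in opposite directions in Nanda and Sadash by CPM. Every Nanda library of Day 21 lay below every one of Day 7, and every Sadash library of Day 21 lay above. In TPM, the libraries of Day 7 and Day 21 overlapped for some of them. Among these were TraesCS1B02G377800, TraesCS7B02G205000 and TraesCS1A02G160400 in Sadash and TraesCS3B02G203200 in Nanda. Over all genes, 16.2% had an estimate below 0 in Nanda and above 0 in Sadash, without the condition on libraries. The share that also met that condition was not taken, and nothing is read from the count of 9. For the 1D gene, TraesCS1D02G365600, the change of Nanda minus that of Sadash was -1.65 on the log2 scale. For the other copies of its triad, it was -1.51 in TraesCS1A02G361200 and -1.23 in TraesCS1B02G377800. Among other genes of the DNA replication list, it was -2.72 in TraesCS3B02G203200, -3.53 in TraesCS1A02G347900, -2.75 in TraesCS1D02G350800 and -2.45 in TraesCS1B02G362500. Of the genes most like the 1D gene, it was -1.21 in TraesCS7B02G205000 and -0.84 in TraesCS1A02G160400, from the ratios of mean CPM. None of these differences was tested here, because the genes were taken from a list chosen on Day 21, belong to the triad of such a gene, were picked out after their values were seen or were chosen for their likeness to the 1D gene. The 3 copies of the triad share reads and are not separate observations.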

How the results depend on the processing

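Of the members' log2 fold changes over all alternatives, 635 kept their direction, their call and, where untested, their value within 1 SD of replicates, 34 moved further, 2 reversed and 1 lost its call; the 76 triad share values held. Fits without a filter and fits to the libraries compared alone moved none of them. On the log2(TPM + 1) and log2(TPM + 0.1) scales, the 1A gene had 0.71 and 0.72 from Day 7 to Day 21 in Nanda (0.36 by CPM), a genotype difference of -0.36 and -0.36 in that change (-0.84), and 0.34 and 0.35 in the net change (0.06). The 1D gene on these scales had -0.65 and -0.67 from Day 7 to Day 21 in Nanda (-1.04), -1.91 and -1.95 from Day 0 to Day 21 (-2.19), 0.49 and 0.50 from Day 7 to Day 21 in Sadash (0.62), -1.26 and -1.29 between genotypes on Day 21 (-1.56), and genotype differences of -1.14 and -1.17 in the second change (-1.65) and -1.61 and -1.65 in the net change (-1.93). Its genotype difference on Day 7 reversed to -0.12 and -0.12 (0.10, not called on either scale), and the cause was not tested. The median of all genes shifted on these scales by up to 0.42 and 0.45, in the genotype difference of the second change. The step of the 1D gene from Day 7 to Day 21 in Nanda was -0.92 with RLE size factors and with DESeq2 and -0.91 for the most abundant transcript. The genotype difference in that step was then -1.55, -1.55 and -1.52, and -1.74 with low-confidence genes kept. From Day 0 to Day 21 in Sadash, the 1D gene had -0.18 with RLE and DESeq2 and -0.17 with 1 CPM in at least 3 libraries, where the net genotype difference was -2.07. With single libraries left out, the 1A gene ranged from 0.99 (without Sadash Day 21 replicate 1) to 1.38 from Day 7 to Day 21 in Sadash, and the genotype differences of the 1D gene from -1.68 to -1.57 in the second change and from -2.03 to -1.86 in the net change. Same-numbered replicates of different groups deviated together (r over 0.1) in 5 of 45 pairs, with r from -0.25 to 0.39, and correlated best with their own number in 9. In 1 of 15 pairs of groups, Nanda and Sadash on Day 21, all 3 replicates did so, and elsewhere they share only a number. With the replicate block, the Day 21 difference of the 1A gene was -0.63 (edgeR adjusted p = 0.00712) and no call of the members changed. With only the libraries compared, the genes called over all genes numbered 11281 in place of 17537 for Day 7 against Day 0 of Sadash, 14374 in place of 22090 for Day 21 against Day 7 of Sadash, and 3800 in place of 8029 between genotypes on Day 7. The genotype difference of the first change called 4644 genes, 2944 without Nanda Day 0 replicate 2 and 2938 without replicate 3. With the most abundant transcript of each gene, an alternative chosen for the lists after seeing the data, the initiation list had 4 in place of 0 genes called higher from Day 7 to Day 21 in Nanda, 3 in place of 7 for the genotype difference of the first change and 8 in place of 14 for the second, and the DNA replication list 4 in place of 8 called lower from Day 7 to Day 21 in Nanda. Of the initiation list, 2 and 3 in place of 0 were called higher in that step on the TPM scales. By TPM, 4 in place of 7 genes were called for the difference of the first change. With only the libraries compared, 8 in place of 14 were called for the second. Calls over all genes, in either direction, changed as well. With the most abundant transcript, they were 19511 in place of 21375 for that step of Nanda. For the differences of the first and second change, they were 3157 in place of 4644 and 8441 in place of 10159. On the log2(TPM + 1) scale, they were 17694 for that step and 6394 for the first difference. With only the libraries compared, they were 7948 for the second. Of the DNA replication list, 2 were called higher in Nanda on Day 7 (6.78% of all genes), 0 to 5 with single libraries left out (5 without Sadash Day 7 replicate 2) and 0 with only the libraries compared.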
